A study of Mus musculus with 2 samples.

Results

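The 52 genes described here act in G2 phase and mitosis, the part of the cell cycle in which a cell with copied DNA condenses its chromosomes, builds a spindle and divides. They were chosen by symbol from a list of G2/M and mitosis genes, and all 52 were found among the 32246 gene symbols of the deposited tables. Their transcripts were measured by scRNA-seq in mouse embryonic stem cells (ESCs) and in epiblast-like cells at 48 h of formation (48h-EpiLCs), in WT cells and in a Cnot8 KO line at each stage. The Cnot8 protein belongs to the Ccr4-Not complex and removes poly(A) tails, which leads to mRNA decay.

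There were 2 libraries, 1 of ESCs (0 h) and 1 of 48h-EpiLCs (48 h), and in each of them both lines had been pooled at equal cell number. The ESCs were kept in serum/LIF, and the 48h-EpiLCs were kept on Matrigel in N2B27 medium with activin A, bFGF and KSR. The paper describes its ESC culture in 2i/LIF as free of feeders. It names mouse embryonic fibroblasts inactivated with mitomycin C as its feeder cells, and does not state whether the serum/LIF ESCs were grown on them. In the methods, EpiLC formation begins with ESCs grown in 2i/LIF rather than serum, so that the comparison of the stages is not one of a culture with its own descendants. The ROSA mT/mG reporter of the WT line is transcribed as tdTomato. The KO line came from a blastocyst of heterozygous parents of the ICR strain, in which exon 2 of Cnot8 had been targeted with CRISPR/Cas9, and it was expanded from a colony picked by hand. The labels give the genotype of both samples as wild type, whereas their titles name WT and KO cells. With 1 line per genotype and 1 library per stage, genotype and line cannot be told apart, nor can stage and library. In the rules below, the KO line is known by Y-linked transcripts and the WT line by their absence. Any effect of sex therefore cannot be told apart from that of genotype either.

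The line of a cell was read from its own transcripts. WT cells had at least 1 UMI of tdTomato and 0 UMIs of the Y-linked genes Ddx3y, Eif2s3y, Kdm5d and Uty, and KO cells had 0 UMIs of tdTomato and at least 2 UMIs of those Y-linked genes together. Of 11054 ESCs that passed the filters, 435 were WT, 2978 were KO and 7641 met neither rule. Of 9400 48h-EpiLCs, 368 were WT, 2977 were KO and 6055 met neither rule. A class that needs detected marker UMIs holds deeper cells: the median was 13151 UMIs per cell in WT ESCs, 13368 in KO ESCs, 15598 in WT 48h-EpiLCs and 17628 in KO 48h-EpiLCs, against 11883 and 15284 in all filtered cells of the respective libraries. Cnot8 transcripts stood at 43.1 CPM in WT ESCs, 72.1 CPM in KO ESCs, 49.7 CPM in WT 48h-EpiLCs and 62.6 CPM in KO 48h-EpiLCs, but the libraries tag 3′ ends and the edit lies in exon 2, so that this level does not check the KO label. CPM stands for UMIs per 1000000 UMIs of a class.

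Fibroblast-like cells, with at least 10 UMIs of 8 fibroblast genes, made up 44 of the KO ESCs and 1 of the WT ESCs, and primitive endoderm-like cells made up 102 and 8 of them. In 48h-EpiLCs these were 1 and 3 of the KO cells and 0 of the WT cells. The pluripotency genes Pou5f1, Sox2, Dppa5a and Tdgf1 were detected in all 4 classes, with Pou5f1 between 75.5 and 109 CPM and Dppa5a between 1793 and 3035 CPM. The libraries shared 41 barcodes (0.311% and 0.330% of theirs). In each library 35 cells carried tdTomato together with at least 2 Y-linked UMIs and so belonged to neither class. No value below has a replicate check, no test was run, and the 95% intervals given are exact and cover counting error only.

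In the cell cycle, the kinase Cdk1 joined to a B-type cyclin drives entry into mitosis, Polo and Aurora kinases organise the spindle and the kinetochores, and the anaphase-promoting complex then tags cyclin B for destruction so that the cell can divide. Many genes of this programme are transcribed late in the cycle through a promoter element called the cell cycle genes homology region (CHR), to which MuvB complexes with B-Myb (Mybl2) or Foxm1 bind, and through CCAAT boxes, to which NF-Y binds. Mouse ESCs are known for a rapid cycle with a short G1 phase, so that most of the cells of a culture are in S phase, G2 phase or mitosis.

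The promoters of these genes are shown first because the programme is known for shared promoter elements. RefSeq promoters (GRCm38.p6, 250 bases before to 50 bases after the transcription start) were matched by symbol for 46 of the 52 genes. Tpx2, Smc4, Aurkb, Cdc25c, Dlgap5 and Cdca2 had no entry. The CHR was searched as TTTGAA or TTCGAA and the CCAAT box as CCAAT, each on both strands, and these words can share at most 1 letter. A CHR word was present in 35 of 46 genes (76.1%), against 5854 of 27025 genes with a promoter entry (21.7%). Between 100 bases before and 50 bases after the start it was present in 30 of the 46 genes (65.2%), against 9.87% of all genes. A CCAAT word was present in 36 of them (78.3%), against 41.1% of all genes, and at least 2 CCAAT words were present in 29 of them (63.0%), against 13.3%. These are matches of letters and not measured binding sites. Windows of 30 bases before the start are given for Mki67, Ckap2l, Top2a, Kif11, Cdk1 and Ube2c. With both lines pooled, these varied together most from cell to cell among the genes with a CHR word within 100 bases before the start. Within KO ESCs and KO 48h-EpiLCs, the folds described below were 1.16 and 1.17 for Cdk1 and 1.11 and 1.15 for Ube2c. The medians of the 52 genes there were 1.18 and 1.17. In WT ESCs and WT 48h-EpiLCs both genes lay above the medians, with 1.74 and 1.70 for Cdk1 and 1.53 and 1.82 for Ube2c. Windows are also given for Cdc20 and Lbr, which differed between the classes, and for Cks1b, which hardly varied with the others. Cdk1 and Cks1b each hold a further CHR word nearer the start, at -15 and -17 bases from it, which is not shown. All windows are written 5′ to 3′ on the strand of the gene, with the CHR word in capitals.
Mki67, chr7:135716460-135716489 (minus strand): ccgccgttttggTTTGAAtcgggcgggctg
Ckap2l, chr2:129297225-129297254 (minus strand): ttattggcgaatTTCAAAgtcgcggaagcc
Top2a, chr11:99024195-99024224 (minus strand): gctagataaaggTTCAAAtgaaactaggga
Kif11, chr19:37376351-37376380 (plus strand): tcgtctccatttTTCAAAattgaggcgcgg
Cdk1, chr10:69352966-69352995 (minus strand): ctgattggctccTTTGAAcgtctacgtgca
Ube2c, chr2:164769888-164769917 (plus strand): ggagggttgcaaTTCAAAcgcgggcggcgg
Cdc20, chr4:118437344-118437373 (minus strand): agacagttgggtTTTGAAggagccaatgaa
Lbr, chr1:181842429-181842458 (minus strand): cgccggcgatgaTTCAAAaggtcgagggac
Cks1b, chr3:89418351-89418380 (minus strand): ccaatcgaggacTTCAAAatggagctgtcc
The windows of Ckap2l and Cdk1 also hold a CCAAT box read on the opposite strand, and those of Cdc20 and Cks1b hold one on the strand of the gene.

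All 52 genes were detected in all 4 classes. The level of a single gene ran from 12.5 CPM for Cdc25c in KO 48h-EpiLCs to 1785 CPM for Hmgb2 in the same cells. Together they made up 9760 CPM in WT ESCs, 10365 CPM in KO ESCs, 9729 CPM in WT 48h-EpiLCs and 11155 CPM in KO 48h-EpiLCs. The sum was thus alike in WT cells of both stages and was highest in KO 48h-EpiLCs. In 126 fibroblast-like cells of the ESC library the sum was 4285 CPM. Those cells also held Dppa5a at 925 CPM, a gene that fibroblasts should lack, and the part of free RNA or doublets in these values was not tested.

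**Figure D1:**
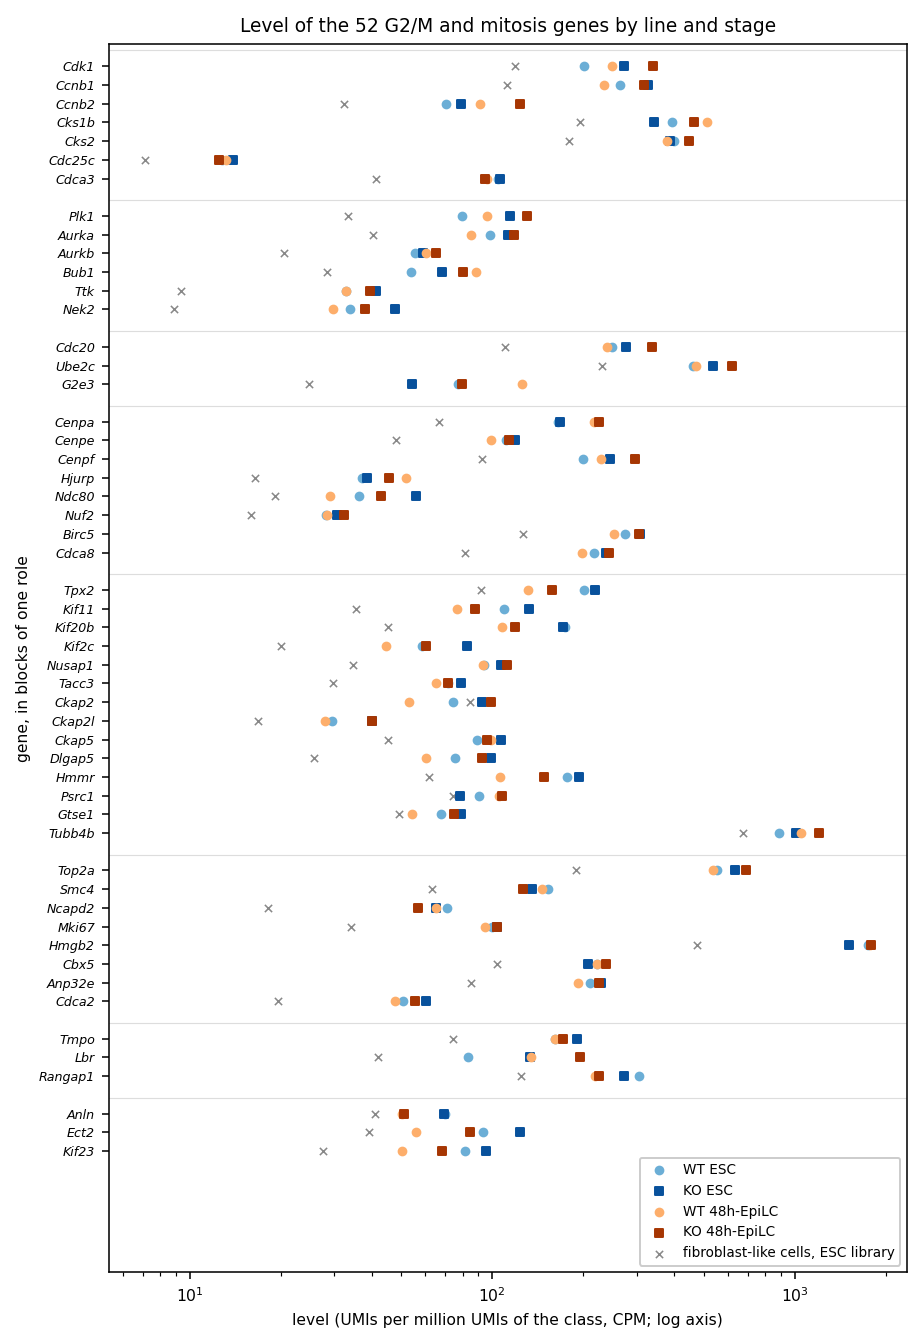
Level of each of the 52 genes in UMIs per 1000000 UMIs of the class (CPM, log axis), in blocks of one role. Circles are WT classes, squares KO classes, blue ESCs and orange 48h-EpiLCs, and grey crosses are fibroblast-like cells of the ESC library. The 4 classes of a gene lie close together beside the span from 12.5 to 1785 CPM between genes, and the crosses lie to the left of nearly all of them, Ckap2 being an exception.

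The Cdk1-cyclin B switch was represented by 7 genes. Cdk1, the kinase itself, stood at 201 CPM in WT ESCs, 272 CPM in KO ESCs, 248 CPM in WT 48h-EpiLCs and 339.7 CPM in KO 48h-EpiLCs. It was higher in KO than in WT cells at both stages and higher in 48h-EpiLCs than in ESCs in both lines. Ccnb1, its main cyclin, stood at 264 (WT) and 327 CPM (KO) in ESCs and at 235 (WT) and 318 CPM (KO) in 48h-EpiLCs, so that the KO classes lay above the WT classes and the stages were closer to each other than the lines. Ccnb2, a second B-type cyclin, ran from 70.5 to 123 CPM with its highest level in KO 48h-EpiLCs. The small Cdk-binding subunits Cks1b and Cks2 ran from 343 to 514 CPM and from 378 to 448 CPM. Cdc25c, a phosphatase that activates Cdk1, was the least abundant gene at 12.5 to 13.9 CPM, and Cdca3, which promotes mitotic entry, ran from 94.6 to 106 CPM.

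The mitotic kinases and checkpoint kinases numbered 6. Plk1, the Polo kinase of centrosomes and kinetochores, stood at 79.3 CPM in WT ESCs, 114 CPM in KO ESCs, 96.5 CPM in WT 48h-EpiLCs and 130.2 CPM in KO 48h-EpiLCs. Aurka, the Aurora kinase of the spindle poles, stood at 98.5, 113, 85.4 and 118 CPM in the same order. Both were higher in the KO class of each stage. Aurkb, the Aurora kinase of the chromosomal passenger complex, ran from 55.4 to 65.3 CPM. The spindle checkpoint kinases Bub1 and Ttk ran from 53.9 to 88.3 CPM and from 32.8 to 41.3 CPM, and Nek2, a kinase that separates centrosomes, ran from 29.7 to 47.8 CPM. Of the genes that act with ubiquitin, Cdc20, the activator of the anaphase-promoting complex, stood at 248 CPM in WT ESCs, 276 CPM in KO ESCs, 239 CPM in WT 48h-EpiLCs and 336 CPM in KO 48h-EpiLCs. Ube2c, the ubiquitin-conjugating enzyme of that complex, ran from 462 to 620.1 CPM with the same order of lines. G2e3, a ubiquitin ligase named for its transcription in G2 phase, ran the other way: it stood at 77.2 CPM in WT ESCs, 54.3 CPM in KO ESCs, 125.1 CPM in WT 48h-EpiLCs and 79.5 CPM in KO 48h-EpiLCs.

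Centromeres and kinetochores, the attachment sites of the spindle, were represented by 8 genes. Cenpa, the histone H3 variant of centromeres, ran from 166 to 226 CPM, and its chaperone Hjurp from 37.0 to 51.8 CPM. The kinetochore motor Cenpe ran from 99.2 to 119 CPM and the kinetochore protein Cenpf from 200.2 to 296 CPM. Ndc80 and Nuf2, which pair in the complex that holds microtubules, ran from 29.1 to 56.2 CPM and from 28.3 to 32.4 CPM. Birc5 and Cdca8, partners of Aurkb in the passenger complex, ran from 253 to 307 CPM and from 198 to 244 CPM.

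The spindle and its microtubules made up the largest block, with 14 genes. Among the motors, Kif11, which pushes the poles apart, ran from 76.5 to 132 CPM, Kif20b from 108 to 174 CPM, and Kif2c, which shortens microtubules, from 44.7 to 82.5 CPM. Tpx2, the activator of Aurka on the spindle, ran from 132 to 219 CPM. Among the proteins that bind or bundle microtubules, Nusap1 ran from 93.6 to 112 CPM, Tacc3 from 65.1 to 78.7 CPM, its partner Ckap5 from 89.2 to 107 CPM, Ckap2 from 53.1 to 98.8 CPM, Ckap2l from 28.0 to 40.0 CPM and Dlgap5 from 60.3 to 99.3 CPM. The others in the block were Hmmr at 106 to 193 CPM, Psrc1 at 78.1 to 108 CPM, Gtse1 at 54.2 to 78.9 CPM and the tubulin Tubb4b at 887 to 1199 CPM. Reads of Tubb4b could also come from near-identical tubulin genes. In cytokinesis, the splitting of the cell, the scaffold Anln ran from 50.3 to 70.0 CPM, Ect2, which acts at the cleavage furrow, from 56.1 to 124 CPM and the motor Kif23 from 50.5 to 95.4 CPM.

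Chromosome structure was represented by 8 genes and the nuclear envelope and pores by 3. Top2a, which untangles sister chromatids, stood at 553 CPM in WT ESCs, 634 CPM in KO ESCs, 538 CPM in WT 48h-EpiLCs and 691 CPM in KO 48h-EpiLCs. Mki67, which coats mitotic chromosomes and is the usual proliferation marker, stood at 99.6, 103, 95.02 and 103 CPM in the same order, so that its 4 levels lay close together. The condensin subunits Smc4 and Ncapd2 ran from 127 to 153 CPM and from 56.7 to 70.7 CPM, lower in the KO class of each stage. The chromatin proteins Hmgb2, Cbx5 and Anp32e ran from 1515 to 1785 CPM, from 208 to 237 CPM and from 192 to 229 CPM, and Cdca2, which brings a phosphatase to chromosomes, from 47.8 to 60.5 CPM. At the nuclear envelope, the lamina-associated Tmpo ran from 161 to 189.9 CPM, the lamin B receptor Lbr from 83.2 to 194 CPM and Rangap1, which acts on the GTPase Ran at pores and kinetochores, from 219 to 306 CPM.

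By position in GENCODE M21, the genes lie on 18 chromosomes, and 11 of them share exon sequence with a counted gene on the opposite strand: Nusap1, Ube2c, Tacc3, Ckap2l, Tubb4b, Cdc20, Cdc25c, Rangap1, Cdca8, Lbr and Nek2. Ncapd2 overlaps a counted gene on its own strand. Whether counting used the strand is not given in the sources used here, so that reads of such pairs may not have been told apart.

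The first comparison asked how the genes differed between KO and WT ESCs. The median log2 ratio of KO over WT, each CPM with 1 added, was 0.16 over the 52 genes, while the median of all 7584 genes with a mean of at least 10 CPM was 0.12. Of the 52 genes, 33 lay above the median of all genes. Lbr and Ndc80 were at least 1.5-fold higher in KO ESCs (2 genes, against 10.7% of all genes) and 0 were at least 1.5-fold lower (against 4.5%). At a log2 ratio of at least 0.32, a lower limit, 10 were higher (against 27.9% of all genes), and G2e3 alone was lower (against 11.8%). The share past either limit was therefore below that of all genes in both directions, and the shifts of these genes were small beside those of the transcriptome.

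Lbr stood at 83.2 CPM in WT and 134 CPM in KO ESCs, a log2 ratio of 0.68 (0.55 to 0.82). Ndc80 stood at 36.2 CPM in WT and 56.2 CPM in KO ESCs, a log2 ratio of 0.62 (0.43 to 0.84). The next in order were Plk1 at 0.52, Nek2 at 0.49 and Kif2c at 0.48. Nek2 and Plk1 are kinases, and Kif2c is a motor that shortens microtubules. Cdk1 had a log2 ratio of 0.44 (0.35 to 0.52) and Ccnb1 one of 0.31 (0.23 to 0.38). Aurka and Top2a had log2 ratios of 0.20 each, Cdc20 of 0.15 and Mki67 of 0.05. With all genes centred on their median, the sign of Mki67 turned, and those of Cdk1, Ccnb1, Plk1, Aurka, Cdc20 and Top2a did not. The lowest ratio was that of G2e3 at -0.50 (-0.65 to -0.36), which was -0.23 when a log-likelihood ratio of 10 line markers set the lines. The next lowest were Hmgb2 at -0.21, Psrc1 at -0.21, Cks1b at -0.19 and Smc4 at -0.17.

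In 48h-EpiLCs the median log2 ratio of KO over WT was 0.24 over the 52 genes and 0.07 over 7590 genes, and 38 of the 52 lay above the latter. Ckap2 and Dlgap5 were at least 1.5-fold higher in KO cells (2 genes, against 6.69% of all genes), and G2e3 was at least 1.5-fold lower (1 gene, against 3.74%). The number higher was 6 without the 10% of cells with the most UMIs, 4 with cells matched on total UMIs and 5 with each cell weighted equally, and the number lower was 1 in each of these. At a log2 ratio of at least 0.32, 20 were higher (38.5% of the 52 genes, against 20% of all genes) and 1 was lower (against 10.8%). These 20 spanned the switch (Cdk1, Ccnb1, Ccnb2), the kinases (Plk1, Aurka, Nek2), the anaphase-promoting complex (Cdc20, Ube2c), kinetochores (Ndc80, Cenpf), the spindle (Ckap2, Ckap2l, Dlgap5, Hmmr, Gtse1, Kif2c), cytokinesis (Ect2, Kif23) and Top2a and Lbr.

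Ckap2, a spindle protein, stood at 53.1 CPM in WT and 98.8 CPM in KO 48h-EpiLCs, a log2 ratio of 0.88 (0.74 to 1.06). Fibroblast-like cells of the ESC library held Ckap2 at 84.4 CPM, above the WT class of 48h-EpiLCs. The 48h-EpiLC library held only 1 such cell among its 9400 filtered cells. What part UMIs from other cells have in this ratio was not tested. Dlgap5 stood at 60.3 and 92.2 CPM, a log2 ratio of 0.60 (0.46 to 0.77). They were followed by Ect2 at 0.58, Ndc80 at 0.55 and Lbr at 0.53. Cdc20 had a log2 ratio of 0.49 (0.42 to 0.57), Aurka of 0.47, Cdk1 of 0.45 (0.38 to 0.53), Ccnb1 of 0.43, Plk1 of 0.43, Top2a of 0.36 and Mki67 of 0.12. All 7 were higher in KO cells, also with all genes centred on their median. G2e3 stood at 125.1 CPM in WT and 79.5 CPM in KO 48h-EpiLCs, a log2 ratio of -0.65 (-0.76 to -0.54). The next lowest were the condensin genes Smc4 and Ncapd2 at -0.20 each, Hjurp at -0.18 and Cks1b at -0.15.

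Side by side, 9 genes had a log2 ratio of at least 0.32 at both stages, which are 9 of the 10 in ESCs and 9 of the 20 in 48h-EpiLCs. They make up 17.3% of the 52 genes, against 12.8% of 7097 genes that passed the limit of 10 CPM in both comparisons, and are Lbr, Ndc80, Plk1, Nek2, Kif2c, Cdk1, Ckap2l, Ect2 and Dlgap5. Only Bub1 was past that limit in ESCs without being so in 48h-EpiLCs, with log2 ratios of 0.34 and -0.13. The ratio was higher in 48h-EpiLCs than in ESCs for 34 of the 52 genes (65.4%), against 45.8% of all genes. Whether the ratios differ between the stages was not tested, since each rests on 1 library. Shares of cells with a UMI showed the same order at equal depth. After each cell had been thinned to 5000 UMIs, Cdk1 was found in 58.8% of WT and 74.2% of KO ESCs and in 62.9% of WT and 80.0% of KO 48h-EpiLCs, against 36.8% of fibroblast-like cells. For Lbr these shares were 31.1%, 47.9%, 52.04% and 63.5%, against 17.6% of fibroblast-like cells. For G2e3 they were 33.4%, 22.4%, 42.8% and 31.7%, against 12.8%. For Ckap2 they were 33.9%, 37.5%, 22.3% and 38.1%. The 32.8% of fibroblast-like cells lay close to the share of WT ESCs and above that of WT 48h-EpiLCs. Those fibroblast-like cells are from the ESC library only, and what part free RNA has in the shares of Ckap2 was not tested. Unthinned, the share of Cdk1 was 86.9%, 94.7%, 94.3% and 98.5% in the 4 classes and 57.9% in fibroblast-like cells, whose median depth was 15740 UMIs.

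**Figure D2:**
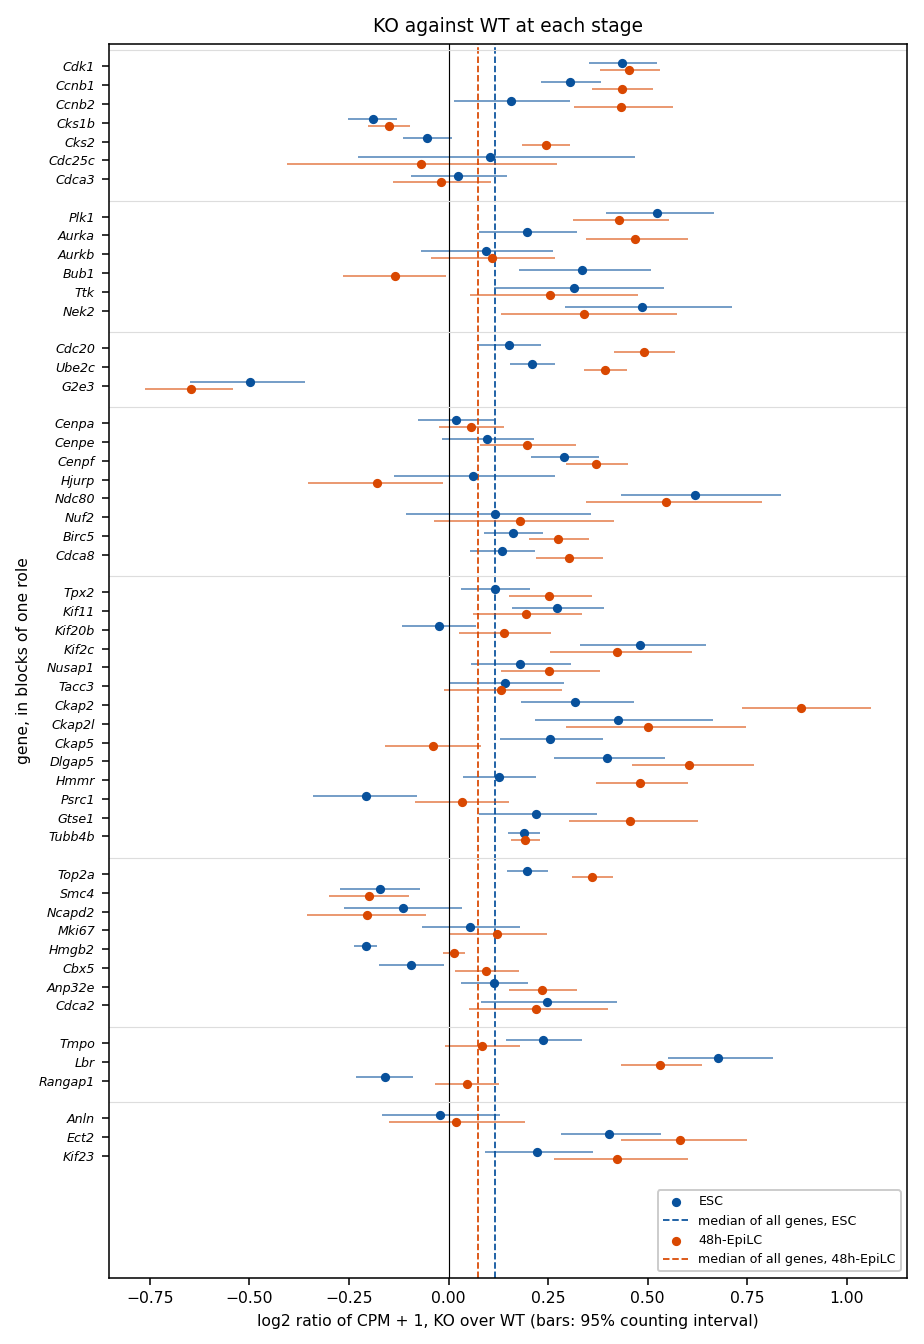
Log2 ratio of CPM + 1 in KO over WT cells for each of the 52 genes, in ESCs (blue) and 48h-EpiLCs (orange), with 95% counting intervals as bars. Dashed lines mark the median of all genes at 0.12 and 0.07, and G2e3 lies farthest to the left at both stages, at -0.50 and -0.65.

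The second question was how the genes differed between the stages in each line. In WT cells the median log2 ratio of 48h-EpiLCs over ESCs was -0.07 over the 52 genes and 0.02 over 7483 genes. Bub1, G2e3 and Lbr were at least 1.5-fold higher in 48h-EpiLCs (3 genes, against 11.2% of all genes), and Hmmr, Ect2, Kif20b, Kif23 and Tpx2 were at least 1.5-fold lower (5 genes, against 10.6%). At the limit of 0.32, 7 were higher (against 23.9%) and 10 were lower (against 22%). In KO cells the median was -0.00 over the 52 genes and -0.03 over 7717 genes. Ccnb2 was at least 1.5-fold higher (1 gene, against 7.14%), Kif11 was at least 1.5-fold lower (1 gene, against 9.39%), and at the limit of 0.32 on the log2 scale 6 were higher (against 18.5%) and 10 were lower (against 23.1%). The genes were thus no more often past these limits than all genes, in either line. The classes of both comparisons come from the same 2 libraries, so that any difference between the libraries enters both.

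The lower genes were mostly those of the spindle and of cytokinesis. The 3 cytokinesis genes had log2 ratios between -0.72 and -0.47 in WT cells and between -0.55 and -0.43 in KO cells. Ect2 stood at 93.3 CPM in WT ESCs and 56.1 CPM in WT 48h-EpiLCs, and at 124 and 84.5 CPM in the KO classes. Kif23 had log2 ratios of -0.68 (WT) and -0.48 (KO). Anln had ratios of -0.47 (WT) and -0.43 (KO).

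Among the 14 spindle genes the median log2 ratio was -0.31 in WT and -0.12 in KO cells. Hmmr stood at 177 CPM in WT ESCs and 106 CPM in WT 48h-EpiLCs, a log2 ratio of -0.73 (-0.87 to -0.59), and its ratio in KO cells was -0.37. The kinesins were lower in 48h-EpiLCs in both lines. Kif20b had log2 ratios of -0.69 (WT) and -0.52 (KO), Kif11 of -0.51 and -0.59, and Kif2c of -0.39 and -0.45. Tpx2 had log2 ratios of -0.61 and -0.47. Psrc1 and Tubb4b lay on the other side, with log2 ratios of 0.22 and 0.24 in WT cells and 0.46 and 0.24 in KO cells.

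Genes of other roles were higher in 48h-EpiLCs. Lbr had log2 ratios of 0.68 (0.53 to 0.85) in WT and 0.54 (0.50 to 0.59) in KO cells, and G2e3 had ratios of 0.69 and 0.54. Lbr, at chr1:181815335-181843046, and G2e3, at chr12:51348061-51376986 (GRCm38), were thus higher at the later stage in both lines, although they differed between the lines in opposite directions. Cks1b had log2 ratios of 0.39 (WT) and 0.43 (KO), and Ccnb2 had ratios of 0.36 and 0.64. Both serve the Cdk1 switch. Cenpa had ratios of 0.39 and 0.43, and Hjurp, its chaperone, of 0.47 and 0.23. Bub1 had a ratio of 0.70 (0.51 to 0.91) in WT cells and 0.23 in KO cells.

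Of the genes named in every comparison, Cdk1 had log2 ratios of 0.30 (WT) and 0.32 (KO) and Plk1 of 0.28 and 0.18. Ccnb1 had ratios of -0.17 and -0.04, Aurka of -0.20 and 0.07, and Cdc20 of -0.05 and 0.28. Top2a had ratios of -0.04 and 0.12, and Mki67 of -0.07 and 0.00. With cells matched on total UMIs, the ratio in WT cells was 0.20 for Cdk1 and 0.12 for Plk1. Both were higher in 48h-EpiLCs in both lines, as they were in each setting tried. The sign of Top2a in WT cells turned in 1 of 9 alternative settings, as did that of Mki67, whose sign in KO cells turned in 3 of them.

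**Figure D3:**
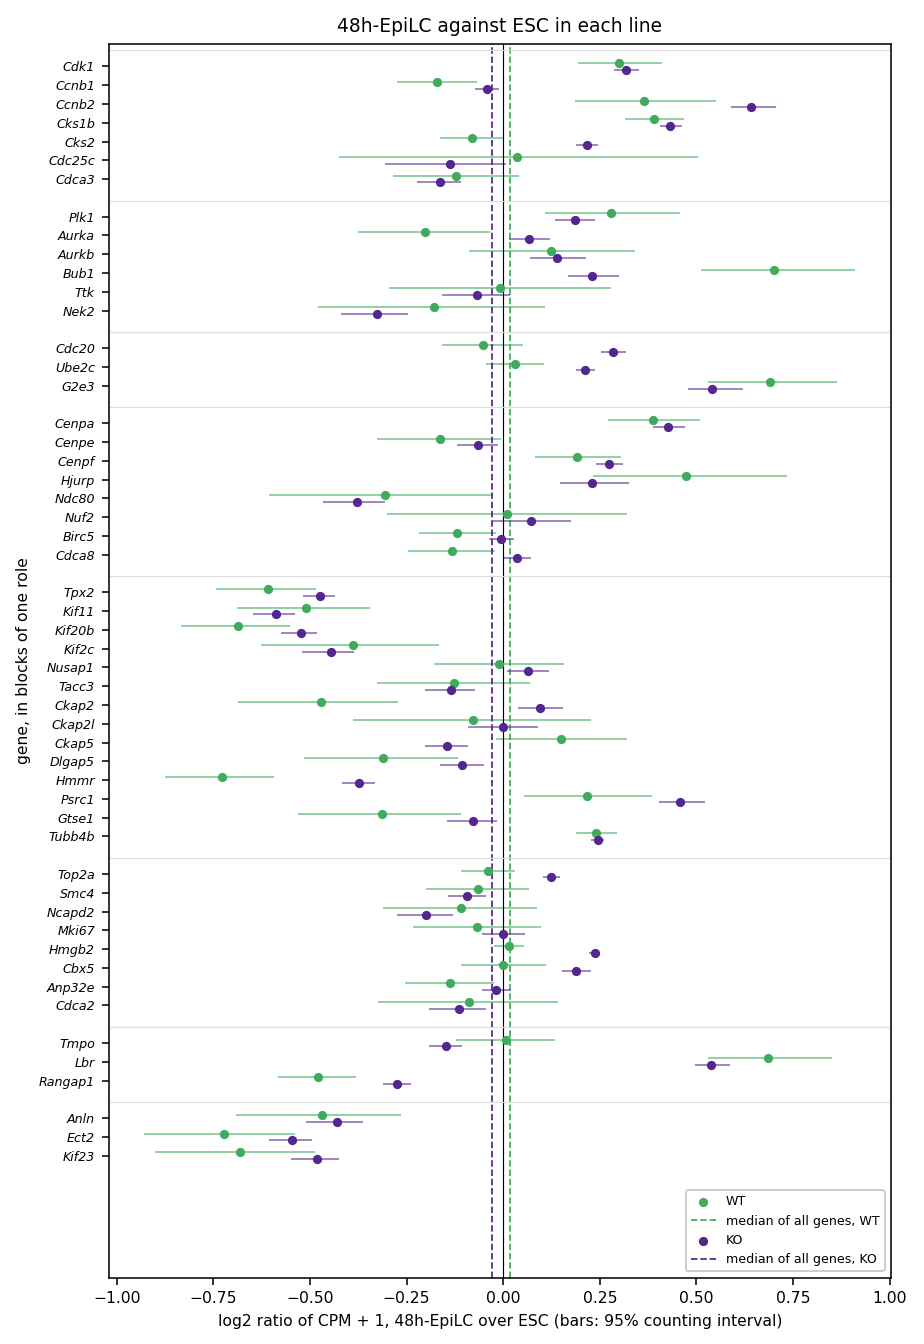
Log2 ratio of CPM + 1 in 48h-EpiLCs over ESCs for each of the 52 genes, in WT (green) and KO cells (purple), with 95% counting intervals as bars and the medians of all genes as dashed lines. The cytokinesis genes and the kinesins lie to the left in both lines, and Lbr and G2e3 lie to the right, between 0.54 and 0.69.

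The third question was how many cells of each class expressed the genes strongly. A score was formed for each cell as the UMIs of all 52 genes after thinning to 5000 UMIs. Hmgb2 gave 16.2% of it in the ESC library and 17.1% in the 48h-EpiLC library, Tubb4b 9.66% and 10.8%, and the 6 most abundant genes together 44.1% and 47.3%. The score had its median at 48 UMIs in WT ESCs, 52 in KO ESCs, 47 in WT 48h-EpiLCs and 56 in KO 48h-EpiLCs. In fibroblast-like cells of the ESC library the median was 15. The distributions of the 4 classes had 1 main peak each and no gap at the limit used below, with an SD of 10.8, 10.5, 11.2 and 9.98 UMIs over their cells, so that a limit on the score marks off a range and does not define a type of cell.

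Cells at or above 58 UMIs, the 75th percentile of all filtered cells, were called high-scoring. They made up 76 of 434 WT ESCs (17.5%, 14.1% to 21.4%) and 843 of 2955 KO ESCs (28.5%, 26.9% to 30.2%). They made up 70 of 367 WT 48h-EpiLCs (19.1%, 15.2% to 23.5%) and 1280 of 2968 KO 48h-EpiLCs (43.1%, 41.3% to 44.9%). The share was higher in KO cells at both stages, and in KO cells it was higher in 48h-EpiLCs. That rise between the stages was not shared by most of the genes. By CPM, 25 of the 52 were higher in KO 48h-EpiLCs than in KO ESCs (48.1%, against 46.8% of all genes). The abundant Hmgb2 had a mean of 7.66 UMIs per cell in KO ESCs and 8.90 in KO 48h-EpiLCs, and Tubb4b one of 5.05 and 5.99. Of the fibroblast-like cells, 0 of 125 were high-scoring, which allows a share of up to 2.91%. Between 12.4% and 27.1% of the cells of a class lay within 3 UMIs of the limit. Shallow cells left out by thinning numbered 1, 23, 1 and 9 in the 4 classes.

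The difference was present at the 10th percentile as well as at the 90th. In ESCs the 10th percentile was 35 UMIs in WT and 41 in KO cells, and the 90th percentile was 62.7 and 65. In 48h-EpiLCs the 10th percentile was 35 and 44, and the 90th was 64 and 69. At the far ends the ESC classes crossed: 1.42% of KO and 0.23% of WT ESCs (1 cell) lay below 24 UMIs, and the highest scores were no more frequent in KO ESCs. The KO ESC class held 44 fibroblast-like cells and the WT ESC class 1. Of the fibroblast-like cells of the library, 63.2% lay below 24 UMIs, and what part they have in the low end of KO ESCs was not tested. At both stages the lines lay further apart at the 10th percentile than at the 90th. The mean score was 4.10 UMIs higher in KO than in WT ESCs and 7.99 UMIs higher in KO than in WT 48h-EpiLCs, and 42 of the 52 genes contributed to the difference at each stage with a higher mean in KO cells. By the log2 ratio of class CPM, a different measure, 41 (78.8%, ESCs) and 43 (82.7%, 48h-EpiLCs) of the 52 genes lay above 0. Among all genes that passed the limit of 10 CPM, 62.8% (ESCs) and 60.0% (48h-EpiLCs) had such a KO over WT ratio above 0. Top2a gave 0.67 UMIs of the difference in ESCs and 0.98 in 48h-EpiLCs, Tubb4b 0.57 and 0.69, Ube2c 0.44 and 0.81, Cdk1 0.38 and 0.54, and Ccnb1 0.31 and 0.49. Hmgb2 went the other way, with -1.197 UMIs in ESCs, which was larger in size than the contribution of any other gene there, and -0.09 in 48h-EpiLCs. The genes with a higher mean summed to 6.14 UMIs in ESCs and 8.90 in 48h-EpiLCs, and those with a lower mean to -2.04 and -0.91. When each gene had the same weight in the score, the high-scoring share was 17.7% in WT and 34.1% in KO ESCs, and 17.2% in WT and 37.8% in KO 48h-EpiLCs.

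Depth moved with the score in WT cells. Within 4 bins of total UMIs, the median score of WT ESCs was 44 UMIs in the shallowest bin and 50 in the deepest, and that of WT 48h-EpiLCs was 43 and 52, whereas KO ESCs had 52 and 51 and KO 48h-EpiLCs 55 and 55. In the deepest bin of ESCs, from 16086 UMIs upwards, the high-scoring share was 26.6% in WT (18.6% to 35.9%) and 24.4% in KO cells (21.6% to 27.3%), so that no difference was detectable there. In the other 3 bins of ESCs the share was 15.6%, 4.63% and 23.1% in WT cells and 26.2%, 32.0% and 34.4% in KO cells. In 48h-EpiLCs it was 3.26%, 20.9%, 18.5% and 33.7% in WT cells and 41.2%, 43.3%, 46.9% and 41.3% in KO cells, from the shallowest to the deepest bin. The KO share was therefore higher in 7 of 8 bins, but the intervals of the lines overlapped in some of these. In the deepest bin of 48h-EpiLCs they were 24.2% to 44.3% (WT) and 38.4% to 44.2% (KO). In the shallowest bin of ESCs they were 9.36% to 23.8% (WT) and 23.2% to 29.3% (KO). In bin 3 of ESCs they were 15.6% to 32.2% (WT) and 30.7% to 38.3% (KO). What part depth or doublets have in the deepest cells was not tested. When KO cells were matched to WT cells on total UMIs, the KO shares were 29.5% and 43.9%.

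**Figure D4:**
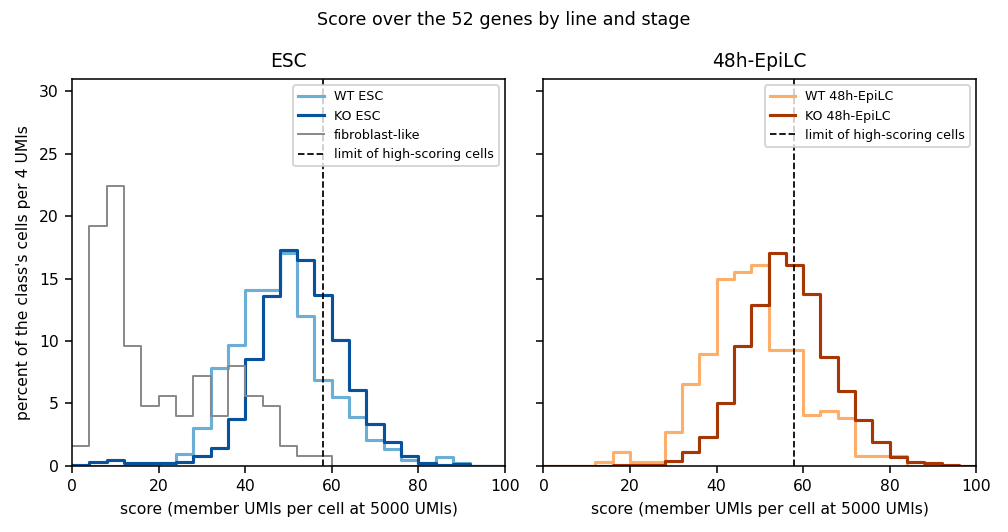
Distribution of the score, in UMIs of the 52 genes per cell at 5000 UMIs, as the percent of the cells of a class in each step of 4 UMIs, for ESCs (left) and 48h-EpiLCs (right). The dashed line is the limit of 58 UMIs for high-scoring cells. The bulk of the KO curves lies to the right of the WT curves at both stages, with medians of 52 and 56 against 48 and 47, and most fibroblast-like cells (grey) lie far to the left.

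The genes were then compared for how far they vary together from cell to cell. For each gene the cells of a library were ordered by the UMIs of the other members, and the mean of the gene in the top 25% of cells was divided by that in the bottom 50%. The median of this fold was 1.31 in the ESC library and 1.31 in the 48h-EpiLC library, and 51 of the 52 genes were above 1 in each. Both lines are pooled in this fold, and it was not taken over all genes, so that no background share is at hand. Within the classes, 5 genes were under 1 in WT ESCs, 1 in KO ESCs, 6 in WT 48h-EpiLCs and 2 in KO 48h-EpiLCs. Cenpe, the kinetochore motor, had means of 0.69 and 0.45 UMIs per cell in ESCs, a fold of 1.54 (1.45 to 1.64), and a fold of 1.62 in 48h-EpiLCs. Nusap1 had folds of 1.53 and 1.68, Aurka of 1.53 and 1.53 and Mki67 of 1.51 and 1.495. These are genes of the spindle, the kinetochore and the mitotic chromosome. Hmmr had folds of 1.36 (1.30 to 1.43) in ESCs and 1.75 (1.65 to 1.85) in 48h-EpiLCs, and Kif23, Ckap2l and Ect2 had folds of 1.64, 1.69 and 1.58 in 48h-EpiLCs.

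Some members had folds near 1. Cks1b had folds of 1.00 and 1.01, Hmgb2 of 1.06 and 1.07, Cbx5 of 1.08 and 1.00 and G2e3 of 1.13 and 1.03. Within the 4 classes the folds of Cks1b ran from 1.03 to 1.10 and those of Hmgb2 from 1.02 to 1.08. For G2e3 the classes were mixed. Its fold was 1.246 (1.06 to 1.46) in KO ESCs and 1.37 (1.01 to 1.85) in WT 48h-EpiLCs, which is not below the median of the former class and close to that of the latter. In WT ESCs its fold was 1.02 and in KO 48h-EpiLCs 1.09, below the class medians of 1.32 and 1.17. The intervals of these lower folds included 1. The low fold of G2e3 with the lines pooled was thus also present within some classes and absent from others. By role, with the lines pooled, the median fold in ESCs was highest for kinases and checkpoint (1.38) and cytokinesis (1.37) and lowest for the nuclear envelope and pores (1.16). In 48h-EpiLCs it was highest for cytokinesis (1.58) and the spindle (1.41) and lowest again for the envelope and pores (1.08). The order of the roles at the top differed within the classes: it was led by the spindle in KO ESCs (1.246, with kinases at 1.22 and cytokinesis at 1.16) and by cytokinesis and the Cdk1-cyclin B switch in WT ESCs (1.51 each, with kinases at 1.35). The envelope and pores had a median of 1.05 to 1.10 in the 4 classes. Within the classes the median fold was 1.32 in WT ESCs, 1.18 in KO ESCs, 1.38 in WT 48h-EpiLCs and 1.17 in KO 48h-EpiLCs. The difference of the class medians was not tested, and the WT classes rest on fewer cells. The pair with the highest Pearson correlation over the thinned cells was Top2a and Cenpf in ESCs (r = 0.16, n = 10552 cells) and Cdk1 and Ube2c in 48h-EpiLCs (r = 0.15, n = 9197 cells). The median over all pairs was 0.02 in both libraries. Cells of a library share its depth and free RNA, and correlations this weak in sparse counts are a description only. Members with a CHR word between 100 bases before and 50 bases after the start had a median fold of 1.31 in ESCs (30 genes) and those without it 1.22 (16 genes). In 48h-EpiLCs these were 1.31 and 1.28.

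**Figure D5:**
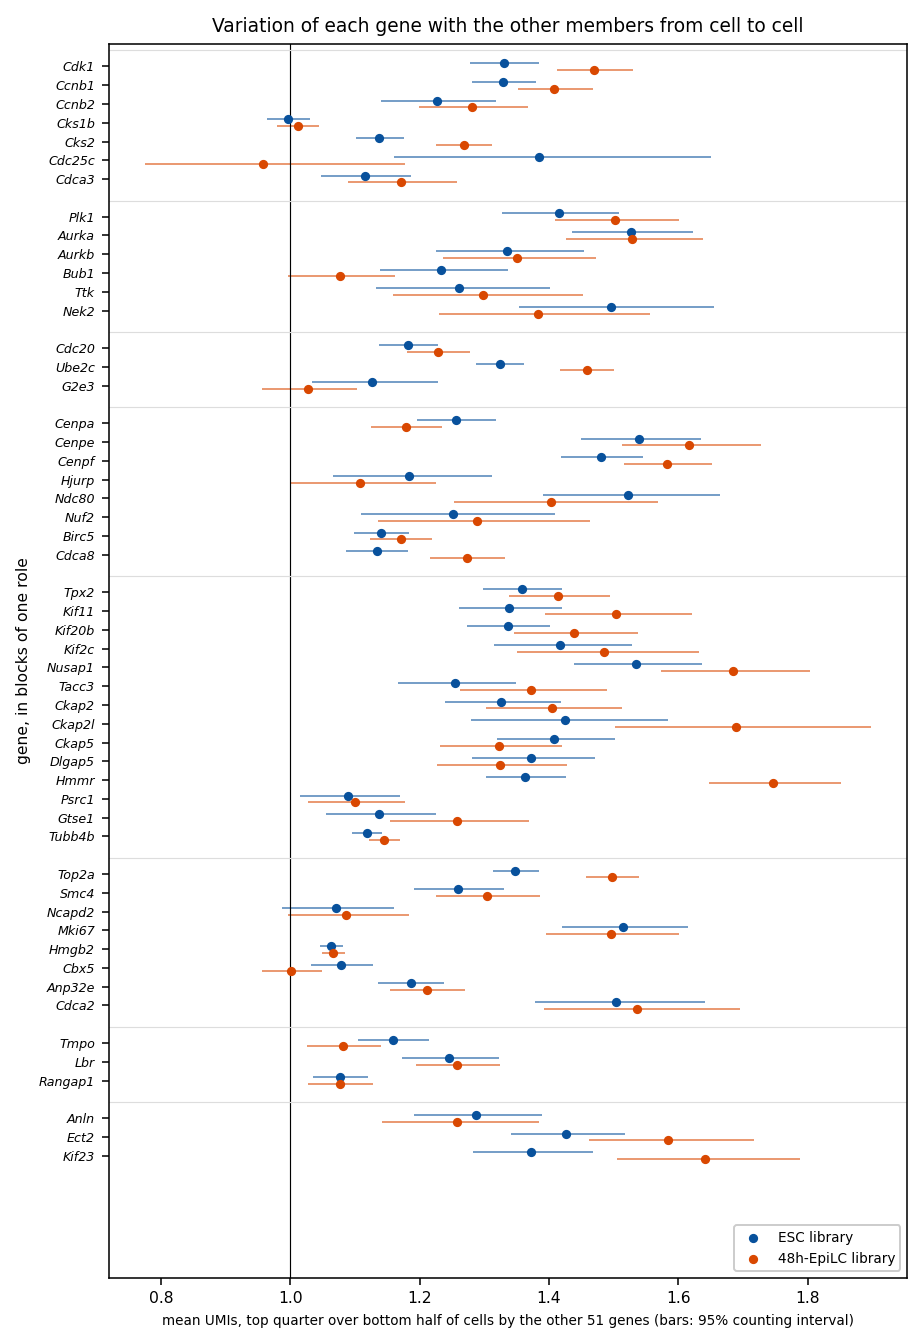
Fold of the mean UMIs of each gene in the top 25% of cells over the bottom 50%, with cells ordered by the other 51 genes, in the ESC (blue) and 48h-EpiLC library (orange), with 95% counting intervals as bars. Cks1b lies at 1.00 and 1.01, and Hmmr reaches 1.75 in 48h-EpiLCs.

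Other genes of the cycle were compared with the score and between the classes. When the scored cells were put into 4 bins from the lowest to the highest score, in ESCs, the mean of 45 other G2/M genes was 35.4, 38.9, 40.1 and 40.8 UMIs per cell at 5000 UMIs, and that of 42 S phase genes was 28.6, 31.4, 32.1 and 32.1 UMIs. In 48h-EpiLCs these were 34.9, 37.2, 38.4 and 39.2 UMIs for G2/M genes and 29.2, 31.4, 31.9 and 31.9 UMIs for S phase genes. Both lists thus rose with the score, and most of all from its lowest bin to the next. Above that the other G2/M genes rose a little further in each bin, while the S phase genes became level. The contrast between the lists was small beside the SD between cells. The SD between cells was 6.75 to 9.86 UMIs for both lists. The median depth was 11429 UMIs in the lowest bin and 12599 in the highest in ESCs, and 13889.5 and 16563.5 in 48h-EpiLCs. The bins pool both lines and all types of cells of a library. Of the fibroblast-like cells, 86.4% had scores of 39 or less, within the lowest bin of ESCs, which reached 42. What part the lines and these cells have in the rise of both lists was not tested.

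Between the lines, 43 of the 45 other G2/M genes passed the limit of 10 CPM in ESCs, with a median log2 ratio of KO over WT of 0.24 (2 at least 1.5-fold higher and 1 lower, against 10.7% and 4.5% of all genes). In 48h-EpiLCs all 45 passed, with a median of 0.17 (2 higher and 0 lower, against 6.69% and 3.74%). Kif22, Tuba1c and Racgap1 had the highest ratios in ESCs at 0.74, 0.56 and 0.53, and Cenpm, Cenpw and Ncapg the lowest at -1.84, -0.56 and -0.23. Cenpm stood at 259.8 CPM in WT ESCs, against 71.7 CPM in KO ESCs, 80.7 CPM in WT 48h-EpiLCs and 72.0 CPM in KO 48h-EpiLCs, so that WT ESCs stood apart from the other classes. In 48h-EpiLCs Cep55, Ncaph and Prc1 were highest at 0.78, 0.62 and 0.49, and Cdkn3, Cenpw and Cenpm lowest at -0.24, -0.23 and -0.16. Between the stages, Pimreg and Pttg1 had the highest ratios in both lines, at 2.08 and 1.27 in WT and 1.67 and 1.22 in KO cells, followed by Cit at 0.80 (WT) and Tuba1c at 0.51 (KO). Pttg1 encodes securin, which holds back separase until anaphase. The lowest were Cenpm, Cep55 and Aspm at -1.67, -1.10 and -1.07 in WT cells, and Aspm, Bub1b and Stmn1 at -0.93, -0.61 and -0.60 in KO cells.

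Of 19 regulators of the programme, 15 passed the limit. Mybl2, the B-Myb that binds with MuvB, stood at 341 CPM in WT ESCs, 462 CPM in KO ESCs, 104 CPM in WT 48h-EpiLCs and 207 CPM in KO 48h-EpiLCs. It was higher in KO cells at both stages, with log2 ratios of 0.44 (0.37 to 0.50) and 0.99 (0.88 to 1.11), and lower in 48h-EpiLCs, with log2 ratios of -1.71 in WT and -1.16 in KO cells. Fzr1, the other activator of the anaphase-promoting complex, had KO over WT ratios of 0.34 and 0.61, and Nfyc, a subunit of NF-Y, of 0.41 and 0.48. The lowest KO over WT ratios were those of E2f1, E2f3 and Rbbp4 in ESCs (-0.30, -0.25 and -0.24) and of E2f1, Fbxo5 and E2f3 in 48h-EpiLCs (-0.36, -0.06 and -0.06). Between the stages Nfyb was highest, at 0.55 in WT and 0.71 in KO cells, followed by Tfdp1 at 0.31 and 0.52 and E2f4 at 0.24 and 0.29. After Mybl2 the lowest were Fzr1 and Nfyc in WT cells (-0.54 and -0.53) and Nfyc and E2f1 in KO cells (-0.46 and -0.27).

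The 42 S phase genes had a median KO over WT log2 ratio of 0.10 in ESCs (1 at least 1.5-fold higher and 1 lower, against 10.7% and 4.5% of all genes) and 0.19 in 48h-EpiLCs (2 higher and 0 lower, against 6.69% and 3.74%). Usp1, Blm and Clspn were highest in ESCs at 0.54, 0.53 and 0.47, and Mcm4, Dtl and Tipin lowest at -0.61, -0.51 and -0.49. In 48h-EpiLCs Dscc1, Mcm6 and Rrm2 were highest at 0.76, 0.68 and 0.55, and Ccne2, Mcm4 and Tipin lowest at -0.36, -0.28 and -0.20. Their median between the stages was -0.06 in WT and 0.02 in KO cells. Ubr7, Chaf1b and Ccne2 were highest in WT cells (0.58, 0.49 and 0.41) and Dscc1, Tyms and Chaf1b in KO cells (0.69, 0.65 and 0.60). E2f8, Hells and Uhrf1 were lowest in WT cells (-0.94, -0.51 and -0.48) and E2f8, Blm and Usp1 in KO cells (-0.53, -0.41 and -0.39).

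Of 15 genes of G1 phase and cycle inhibitors, 11 passed the limit between the lines. Ccne1, the cyclin that starts S phase, stood at 363 CPM in WT ESCs, 564 CPM in KO ESCs, 225 CPM in WT 48h-EpiLCs and 325 CPM in KO 48h-EpiLCs. Its KO over WT log2 ratios were 0.63 and 0.53, the highest of the list at both stages. In ESCs Cdkn2d and Cdkn1c followed at 0.37 and 0.28, and Cdk6, Cdk4 and Ccnd1 were lowest at -0.40, -0.37 and -0.23. In 48h-EpiLCs Cdkn2a and Ccnd3 followed at 0.26 and 0.07, and Cdk6, Cdkn1a and Cdk4 were lowest at -0.27, -0.20 and -0.16. Between the stages Ccnd3, a D-type cyclin, was lowest at -1.80 in WT and -1.68 in KO cells. It was followed by Ccne1 at -0.69 and -0.80, and by Ccnd2 in WT (-0.60) and Cdkn1c in KO cells (-0.77). Cdkn1a, Cdkn2a and Cdk2 were highest in WT cells (0.71, 0.61 and 0.31) and Cdkn2a, Cdkn1a and Cdk4 in KO cells (0.75, 0.34 and 0.14). The medians of the list between the stages were -0.35 and -0.25.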

How the data were processed

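The deposited values are counts of UMIs per gene and cell barcode, made by the authors with Cell Ranger (version 3.0.2, default parameters) from 10x Genomics 3′ libraries on an mm10 reference extended with the coding sequence of tdTomato. Seurat (version 4) is named for their later steps. The tables hold the called cells, with no normalisation. The libraries held 144584246 and 163771168 UMIs in 13184 and 12427 barcodes. Barcodes under 1000 detected genes or over 10% mitochondrial UMIs were left out, and no doublet caller was run. UMIs were summed per class and scaled to CPM. Ratios were taken as log2 of CPM + 1, over genes with a mean of at least 10 CPM. Levels carry Poisson intervals, shares Clopper-Pearson intervals and ratios binomial intervals conditional on both counts, which leave out the added 1. Cells were thinned without replacement to 5000 UMIs.

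The 52 genes and all lists were chosen with earlier results of these data known. Every member was named with its role, and for each comparison the 5 highest and 5 lowest members with a mean of at least 20 CPM, always Cdk1, Ccnb1, Plk1, Aurka, Cdc20, Top2a and Mki67, and the 3 highest and lowest of other lists. Sums, ratios, intervals, matching and thinning were tested on simulated data. Python 3.11.15, numpy 2.4.6, scipy 1.17.1 and pandas 2.3.3 were used. Promoter sequences are from RefSeq. Alternatives varied the rules for the lines (also a log-likelihood ratio over 10 line markers), the filters on cells, the limit of 10 CPM, the added 1, depth matching, the thinning depth, and the weights and limit of the score. Weighting each cell equally was added after seeing the data.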

Additional observations from a re-analysis of the deposited data

Results flagged for a closer look

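In 4 members the ratios under one contrast lay on opposite sides of 0 in the groups compared, each with a counting interval that excluded 0. With 1 library per stage the differences were not tested. The log2 ratio of KO over WT for Bub1 was 0.34 in ESCs and -0.13 in 48h-EpiLCs, a difference of -0.47, and for Cbx5 it was -0.09 and 0.10, a difference of 0.19. The log2 ratio of 48h-EpiLCs over ESCs for Ckap2 was -0.47 in WT and 0.09 in KO cells, a difference of 0.57. Fibroblast-like cells of the ESC library held 84.4 CPM of this gene, against 53.1 CPM in WT 48h-EpiLCs. For Aurka the log2 ratio of 48h-EpiLCs over ESCs was -0.20 in WT and 0.07 in KO cells, a difference of 0.27.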

How the results depend on the processing

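With 1 library per stage nothing could be left out or tested, and no paired analysis was possible because each stage has 1 library and no test was made. The median log2 ratio of the 52 genes between the stages in KO cells, -0.00274, turned to 0.00105 with KO cells that had at least 2 Y-linked genes, 0.00992 without the 10% of cells with the most UMIs, 0.0350 with cells matched on total UMIs, 0.0274 relative to the median of all genes and 0.00497 with each cell weighted equally. The median of KO over WT in ESCs was 0.0434 relative to the median of all genes. The number of members past 1.5-fold was 2, 3, 8 and 2 in the 4 comparisons (KO over WT in ESCs and 48h-EpiLCs, stage in WT and KO cells), and 11, 21, 17 and 16 at a log2 ratio of at least 0.32 in size. In KO over WT in 48h-EpiLCs it was 7 without the 10% of cells with the most UMIs, 5 with matched cells and 6 with equal weights, with 6, 4 and 5 of them higher. Relative to the median of all genes it was 1 in KO over WT in ESCs, with 0 higher and 1 lower. Lbr and Ndc80 were then not past 1.5-fold, and G2e3 was lower. Between the stages in KO cells it was 1 relative to that median, with at least 1 Y-linked UMI and with the log-likelihood ratio. It was also 1 there without the 10% of cells with the most UMIs and with equal weights.

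The high-scoring share was higher in KO than in WT cells in each setting at both stages. With at least 1 Y-linked UMI the KO shares were 26.9% and 39.99%. In KO 48h-EpiLCs it was 40.9% with the log-likelihood ratio and 45.2% without the 10% of cells with the most UMIs. With scaled members the KO shares were 34.1% and 37.8%. With the limit at the 90th percentile the shares of WT ESCs, KO ESCs, WT 48h-EpiLCs and KO 48h-EpiLCs were 8.76%, 12.5%, 10.6% and 21.5%, and at the 50th they were 42.6%, 62.0%, 41.1% and 75.03%. Thinned to 3000 UMIs, WT ESCs had 21.8% and KO ESCs 31.4%. Without thinning, WT 48h-EpiLCs had 14.4% and KO 48h-EpiLCs 47.2%. Other causes of these shifts than the settings themselves were not tested. The WT classes hold 435 and 368 cells, against 2978 and 2977 in the KO classes.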
